A study of Homo sapiens with 20 samples.

Results

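The genes described here are 9 basic helix-loop-helix (bHLH) transcription factors, the neurogenins NEUROG1, NEUROG2 and NEUROG3, the NeuroD factors NEUROD1, NEUROD2, NEUROD4 and NEUROD6, and the related factors ATOH1 and OLIG2. For each symbol, the coding gene record that carries it was taken, and each had 1 such record, so the set holds 9 of 20237 coding records and of 38369 records in all. RNA was measured in neural progenitor cells derived from the human embryonic stem cell line H1 while they differentiated towards neurons. Differentiation was started by withdrawing FGF, the mitogen of these progenitors, and supplying BDNF, a neurotrophin. Both applied to every day after day 0. The progenitor state (day 0) and days 1, 2 and 4 were followed by days 5, 11 and 18, with 3 cultures for each day except day 5, which had 2 because the submitters had removed 1 as an outlier. All cultures come from 1 cell line, and cells for days 5, 11 and 18 had been replated on day 4, so time and replating cannot be told apart in those days. Levels are given as FPKM, fragment counts scaled to transcript length and to sequencing depth. The deposited values hold 1 FPKM per record and day, pooled over its cultures, so neither a spread between cultures nor a test can be given for any difference.

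Proneural bHLH factors commit neural progenitors to the neuronal fate. They pair with ubiquitous E proteins and bind DNA at E-boxes, short sites with the letters CANNTG. Neurogenins act first, in dividing progenitors, where they switch on Notch ligands such as DLL1 and, later, NeuroD factors that carry differentiation forward. ID proteins lack a DNA-binding region and sequester the E proteins, and HES proteins, induced by Notch signalling in neighbouring cells, repress the proneural genes. ATOH1 specifies cerebellar granule cells and hair cells, OLIG2 motor neuron and oligodendrocyte progenitors, and NEUROG3 the endocrine cells of the pancreas.

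The stretch just before each gene's start was read from hg19 for 3 neuronal members, to show which E-box letters lie there. Their records were the highest of the set in these cells. That of NEUROD1 is shared with another gene, CERKL, so its level is not that of NEUROD1 alone. Each stretch is the 250 bases before the start of the record on the gene's own strand, 5′ to 3′, with every CANNTG in capitals. The windows lie at chr4:113437329-113437578 (minus strand) for NEUROG2, chr2:182545382-182545631 (minus strand) for NEUROD1 and chr12:55413479-55413728 (plus strand) for NEUROD4.
NEUROG2: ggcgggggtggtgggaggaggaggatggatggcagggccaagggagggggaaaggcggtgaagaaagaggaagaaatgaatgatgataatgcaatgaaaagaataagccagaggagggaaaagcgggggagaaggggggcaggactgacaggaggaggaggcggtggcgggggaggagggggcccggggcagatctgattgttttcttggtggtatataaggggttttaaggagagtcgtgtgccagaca
NEUROD1: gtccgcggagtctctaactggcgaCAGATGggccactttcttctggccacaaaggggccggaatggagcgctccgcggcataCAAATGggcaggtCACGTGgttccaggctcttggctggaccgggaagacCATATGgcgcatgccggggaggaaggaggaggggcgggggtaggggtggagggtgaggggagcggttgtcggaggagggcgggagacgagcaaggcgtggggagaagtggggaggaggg
NEUROD4: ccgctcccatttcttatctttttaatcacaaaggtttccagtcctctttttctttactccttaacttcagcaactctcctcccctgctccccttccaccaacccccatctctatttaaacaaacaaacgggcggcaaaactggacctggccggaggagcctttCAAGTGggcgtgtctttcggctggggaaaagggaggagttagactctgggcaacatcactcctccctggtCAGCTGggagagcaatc
The NEUROG2 window held no CANNTG, NEUROD4's held 2 and NEUROD1's held 4. The motif is its own reverse complement, so both strands were searched at once. Of 19272 coding records with a full window on a main chromosome, 59.2% held at least 1 CANNTG and 2.58% held 4 or more. Among all 9 members, 5 windows held the motif, with 3 in NEUROD2, 2 in NEUROD6 and 1 in NEUROG3, and none in NEUROG1, ATOH1 or OLIG2. The form CAGATG, searched with its reverse complement CATCTG, stood 226 bases before the NEUROD1 start and 136 bases before the NEUROD2 start and in no other member's window, against 10.3% of all windows. The form CAGCTG, which is its own reverse complement, was present for NEUROD4 and NEUROG3, against 13.2% of all windows. Both forms are kinds of CANNTG and are counted there too. The record starts lay 8 bases from the GENCODE start for NEUROG2, 137 for NEUROD1 and 29 for NEUROD4. The distances were larger for NEUROD6 (198) and ATOH1 (174). The ATOH1 record starts after the GENCODE start, so most of its window lies within the annotated gene. Letters in such a window do not show binding.

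All 9 members have their protein-coding sequence in a single exon, as GENCODE annotates them, against 2178 of 19869 protein-coding genes (11.0%). In the deposited models NEUROG1 (chr5:134869980-134871639) and ATOH1 (chr4:94750078-94751142) are single-exon records, with 1660 and 1065 exon bases. NEUROG2 (chr4:113434674-113437328, 2285 exon bases) and NEUROD4 (chr12:55413729-55423800, 3955 exon bases) have 2 exons each. The NEUROD1 record is a merged one, named CERKL,NEUROD1, that spans chr2:182401402-182545381 and 12 transcripts. Only 1 of these transcripts lies within NEUROD1, whose exons make up 2629 of the 6708 exon bases (39.2%). CERKL encodes a ceramide kinase-like protein, and the values of this record cannot be assigned to NEUROD1 alone.

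Among the neurogenins, NEUROG2, which drives cortical and sensory neurogenesis, was the most abundant member from day 1 onwards. Its level was 0.693 FPKM on day 0, 5.06 on day 1, 5.24 on day 2, 7.73 on day 4, 7.82 on day 5, 19.4 on day 11 and 9.93 on day 18. It was therefore lowest on day 0, nearly level between days 1 and 2 and between days 4 and 5, and highest on day 11. Between day 0 and day 1 the difference was 6.51-fold on the FPKM + 0.1 scale (log2 2.70), and between day 5 and day 11 it was 2.46-fold (log2 1.30). Day 18 stood at 51.2% of the day 11 level, a log2 difference of -0.96. The record takes about 51.0% of its exon bases from a stretch it shares with a lincRNA on the other strand, described further down.

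NEUROG1, the neurogenin of inner ear and sensory ganglia neurons, was lower in FPKM than NEUROG2 on every day, by 10 times or more except on day 2. Its FPKM was 0.0670 on day 0, 0.173 on day 1, 0.566 on day 2, 0.271 on day 4, 0.473 on day 5, 0.704 on day 11 and 0.908 on day 18. Unlike NEUROG2, it had a local peak on day 2 and was highest on the last day. The spacing of low FPKM values allows an approximate count of the fragments behind a value, and gave about 8.35 for NEUROG1 on day 0, 54.6 on day 2, 56.4 on day 4 and 355 on day 18. The day 0 value therefore rests on few fragments, and the approximation ignores how the authors' software shares fragments between transcripts.

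NEUROD4, which acts with NEUROG2 in early-born neurons of the retina and spinal cord, was likewise lowest on day 0 and highest on day 11, at a lower level than NEUROG2. It measured 0.370 FPKM on day 0, 2.12 on day 1, 2.65 on day 2, 2.81 on day 4, 2.58 on day 5, 5.96 on day 11 and 3.02 on day 18. The day 1 value was 4.72-fold over day 0 on the FPKM + 0.1 scale (log2 2.24), the day 11 value 2.26-fold over day 5 (log2 1.18), and day 18 stood at 50.7% of day 11. Over the 7 days, Pearson's r of log2(FPKM + 0.1) between NEUROD4 and NEUROG2 was 0.99, as a description of 7 points that share the libraries.

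The CERKL,NEUROD1 record, which contains NEUROD1, a factor of neuronal maturation and survival, had a steadier course. Its FPKM was 1.55 on day 0, 2.09 on day 1, 3.39 on day 2, 3.57 on day 4, 5.14 on day 5, 8.62 on day 11 and 5.93 on day 18. It was the highest of the 9 records on day 0 and second to NEUROG2 at days 2, 4, 5, 11 and 18. Its log2 difference from day 0 to day 1 was 0.41, against 2.70 for NEUROG2 and 2.24 for NEUROD4, and no single step between neighbouring days reached 2-fold. Its r was 0.90 with NEUROG1, 0.89 with NEUROG2 and 0.85 with NEUROD4.

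**Figure D1:**
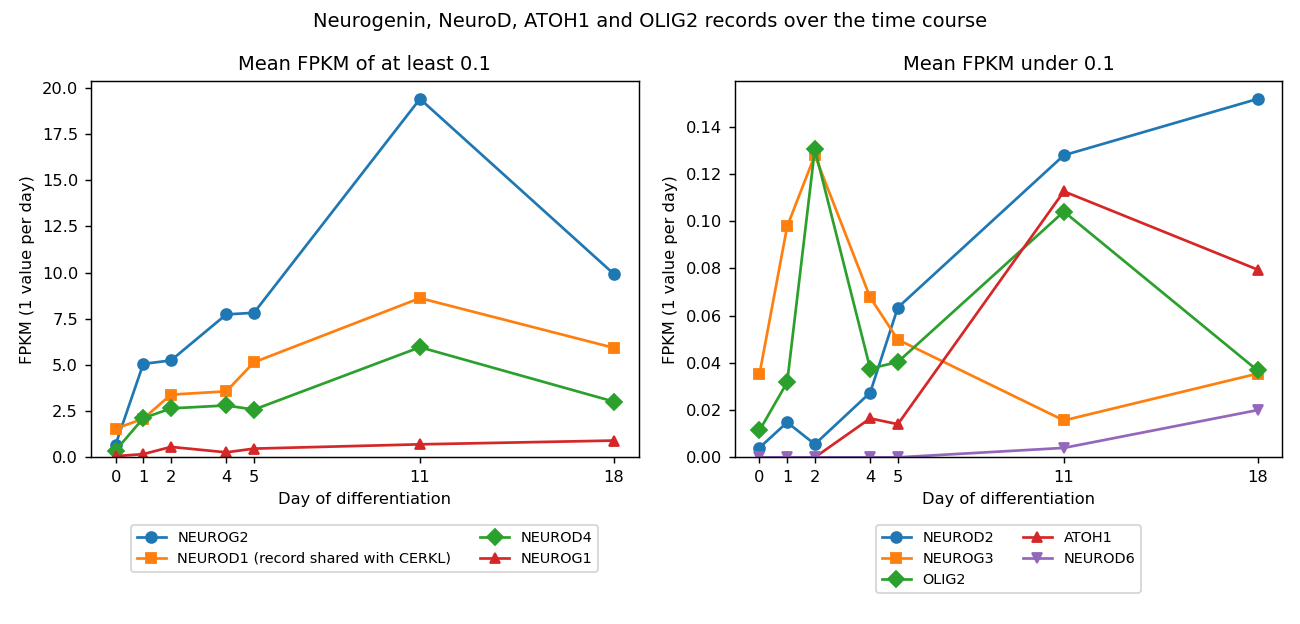
FPKM of each record against the day of differentiation, 1 pooled value per day with no error bar, for the 4 records with a mean of at least 0.1 FPKM (left) and the 5 with a lower mean (right, on an axis more than 100 times finer). NEUROG2 was highest on day 11 with 19.4 FPKM, whereas NEUROG1 and NEUROD2 were highest on day 18, and NEUROG3 and OLIG2 on day 2.

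The other 5 members stayed near the lower end of the scale, with means under 0.1 FPKM. NEUROD2, a factor of cortical excitatory neurons, was at 0.00410 FPKM on day 0, 0.0148 on day 1, 0.00555 on day 2, 0.0274 on day 4, 0.0634 on day 5, 0.128 on day 11 and 0.152 on day 18. Those values correspond to about 0.932 fragments on day 0 and 108 on day 18, so its highest values came on the last 2 days. NEUROD6, which marks maturing cortical pyramidal neurons, was listed at 0 through day 5, at 0.00400 FPKM on day 11 and at 0.0200 on day 18, about 1.04 and 10.1 fragments. ATOH1 was listed at 0 for days 0, 1 and 2 and at 0.0165, 0.0140, 0.113 and 0.0795 FPKM for days 4, 5, 11 and 18, at most about 19.9 fragments.

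NEUROG3 and OLIG2 had their highest values on day 2 rather than late. NEUROG3 measured 0.0352, 0.0978, 0.128, 0.0677, 0.0498, 0.0156 and 0.0354 FPKM in the order of the 7 days, from about 2.19 to 15.6 fragments a day. OLIG2 measured 0.0114, 0.0318, 0.130, 0.0376, 0.0404, 0.104 and 0.0368 FPKM, from about 2.13 to 31.1 fragments. About 8.66 fragments lay behind the day 2 value of NEUROG3, fewer than on day 1. About 18.8 lay behind that of OLIG2, fewer than on day 11. With so few fragments the order of neighbouring days is uncertain for these 5 genes. OLIG1, a glial bHLH factor whose gene lies 40949 bases from OLIG2, stayed at or under 0.196 FPKM. Its day 2 and day 11 values were nearly equal, at 0.196 and 0.193 FPKM.

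The summed level of the 9 records was 2.73 FPKM on day 0, 9.59 on day 1, 12.1 on day 2, 14.5 on day 4, 16.2 on day 5, 35.0 on day 11 and 20.1 on day 18. The CERKL,NEUROD1 record held 56.8% of that sum on day 0 and 24.6% on day 11, while NEUROG2 held 25.4% on day 0 and 55.4% on day 11. At day 18 the order was NEUROG2, CERKL,NEUROD1, NEUROD4 and NEUROG1, with the other 5 all at or below 0.152 FPKM. How far neighbours in that order differ beyond the spread between cultures is unknown, since only pooled values exist.

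To place these differences, the members were set beside all coding records with a mean of at least 0.1 FPKM, 14107 in all, and a record was counted as higher or lower where the days differed by at least 2-fold on the FPKM + 0.1 scale. Of the 9 members, 4 passed that minimum, namely NEUROG1, NEUROG2, CERKL,NEUROD1 and NEUROD4, of which NEUROG1 was under 0.1 FPKM on day 0 and passed through its later days. From day 0 to day 18 all 4 were higher, against a background of 10.6% of coding records, and 0 were lower, against 28.2%. The log2 differences were 3.66 for NEUROG2, 2.73 for NEUROD4, 2.59 for NEUROG1 and 1.87 for CERKL,NEUROD1. With a pseudocount of 1 NEUROG1 stood at 0.84, under 2-fold. Ranked among the 14107 records, NEUROG2 stood above 99.0%, NEUROD4 above 97.6%, NEUROG1 above 97.3% and CERKL,NEUROD1 above 95.2%. At day 11 against day 0, NEUROG2 stood above 99.9% with a log2 difference of 4.62.

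The whole scale moved between these days. The median coding record with a mean of at least 1 FPKM was lower on day 18 than on day 0 by a log2 difference of -0.60, and lower on day 11 by -0.32. Relative to that median, the day 18 differences were 4.26 for NEUROG2, 3.33 for NEUROD4, 3.19 for NEUROG1 and 2.47 for CERKL,NEUROD1, so all 4 kept their direction. On the same footing 19.3% of coding records were higher and 12.1% lower, in place of 10.6% and 28.2%.

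Step by step, the differences of 2-fold or more fell in 3 intervals. From day 0 to day 1, 2 of the 4 members were higher (NEUROG2 and NEUROD4), against 4.61% of coding records. From day 1 to day 2 NEUROG1 alone was higher (log2 1.28), against 0.269%. From day 5 to day 11, 2 were again higher, NEUROG2 and NEUROD4, against 2.56%. From day 11 to day 18, 0 of the 4 were lower by 2-fold, against 3.54%, although NEUROG2 and NEUROD4 came close at -0.96 each, or -0.68 each relative to the median of that step. The highest of the 7 days was day 11 for 3 of the 4, against 9.22% of coding records, the exception being NEUROG1. In bulk RNA, fewer cells expressing a gene and less RNA per cell cannot be told apart for any of these values.

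**Figure D2:**
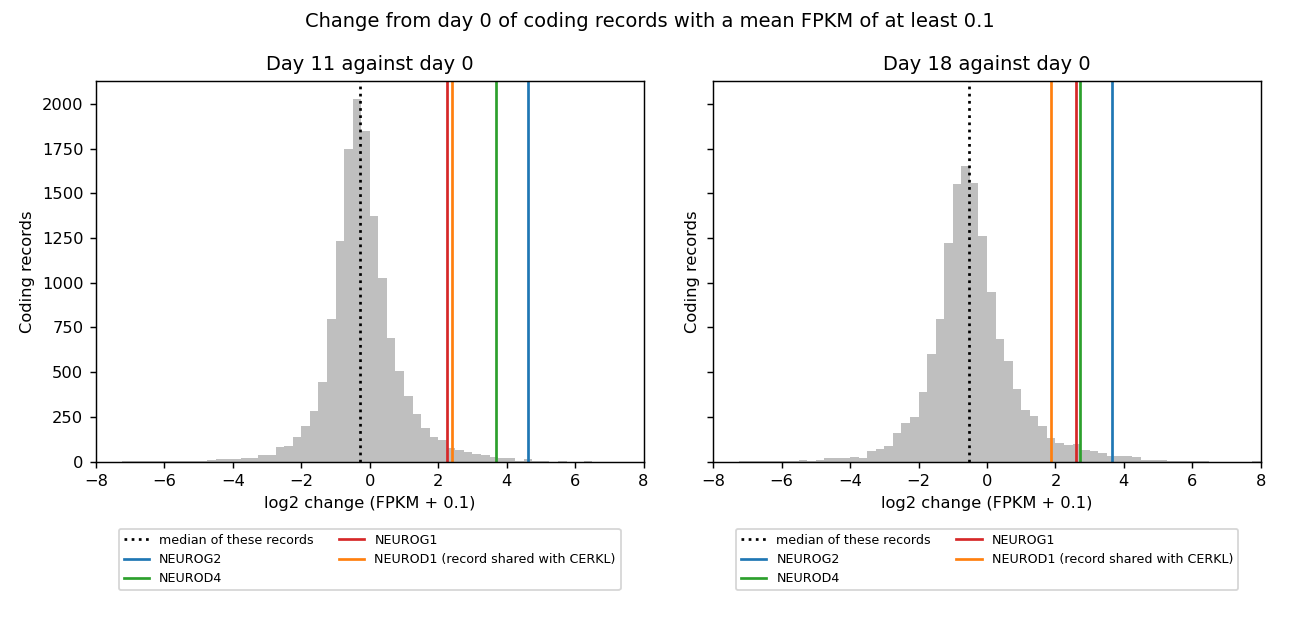
Histograms of the log2 change in FPKM + 0.1 from day 0 to day 11 (left) and day 18 (right) of the 14107 coding records with a mean of at least 0.1 FPKM, with the 4 members above that minimum as coloured lines and the median of all as a dotted line. All 4 lines lie to the right of the bulk, NEUROG2 furthest at 4.62 and 3.66, and 2 records of the right panel lie outside the axis.

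The cell type markers moved over the same days. The summed FPKM of 5 neuronal markers (DCX, STMN2, SYT1, SNAP25 and ELAVL4) was 56.2 on day 0, 657 on day 11 and 878 on day 18, all 5 being higher on day 18 by at least 2-fold. The sum of 5 progenitor markers (NES, SOX2, VIM, PAX6 and HES1) was 3608 on day 0, 4590 on day 2 and 1760 on day 18, so both progenitor and neuronal RNA were present throughout. VIM made up most of that sum (2948 FPKM on day 0), and PAX6 took another course, with 4.31 FPKM on day 0, 14.3 on day 11 and 10.4 on day 18. STMN2 supplied 727 of the 878 FPKM of the neuronal sum on day 18. Of the neuronal markers STMN2, SYT1, SNAP25 and ELAVL4 were highest on day 18, while DCX, at 90.0 FPKM on day 11 and 88.0 on day 18, was highest on day 11 as NEUROG2, NEUROD4 and CERKL,NEUROD1 were. Mesenchymal markers summed to 272 on day 0 and 34.3 on day 18, where COL3A1 and COL1A2 were both lower and COL1A1 was listed at 0 on every day, which may be a failed estimate. Astrocyte markers summed to between 0.821 and 9.22, with 8.68 of the 9.22 on day 0 from S100B. GFAP and ALDH1L1 had means under 0.1 FPKM. Oligodendrocyte lineage markers summed to between 30.8 and 37.4, with 27.3 of the 35.4 on day 0 from a record that PDGFRA shares with FIP1L1. SOX10, a defining marker, had a mean of 0.0615. Pancreatic endocrine markers summed to at most 0.0836. In that sum the record that holds INS was listed at 0 on every day, which may again be a failed estimate. The part of these cells in the members' values was not tested.

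Of 14 genes known to act downstream of neurogenins, 10 were higher on day 18 than on day 0 by at least 2-fold, 1 was lower and 3 lay between, with a median log2 difference of 2.08 against -0.52 over all coding records. Of all coding records above the minimum 10.6% were higher and 28.2% lower, and these shares apply to each list count below too. The largest differences were those of ELAVL4, a neuronal RNA-binding protein, at 4.33 (0.149 FPKM on day 0 and 4.89 on day 18), and MYT1, a zinc finger factor of committed neuronal precursors, at 4.06 (0.392 and 8.11). The smallest were RND2, a small GTPase of migrating neurons, at 0.39 (7.77 and 10.2), and MFNG, a modifier of Notch, at -2.97 (5.22 and 0.577), whose record is shared with CARD10. Day 11 was the highest day for 10 of the 14, against 9.22% of coding records. The Notch ligand DLL1 measured 4.12 FPKM on day 0, 33.9 on day 11 and 21.3 on day 18, and DLL3, its partner in the same pathway, 3.28, 29.8 and 10.4. The zinc finger factor INSM1 measured 0.694, 13.6 and 5.84, and NHLH1, a bHLH factor of newborn neurons, 2.24, 38.5 and 17.1. All 4 were highest on day 11, as NEUROG2 was.

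**Figure D3:**
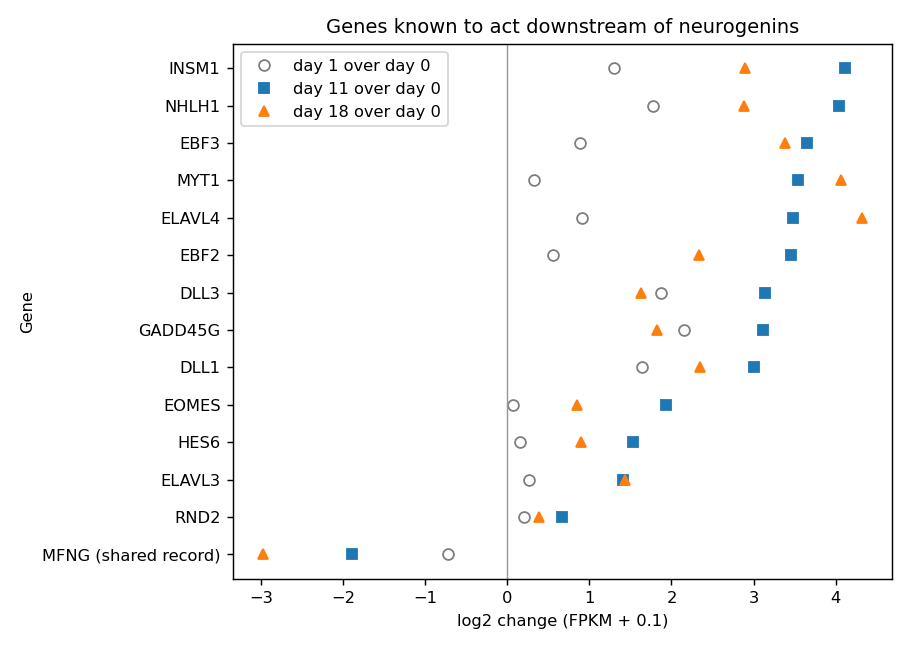
Log2 change in FPKM + 0.1 from day 0 to days 1, 11 and 18 for the 14 genes known to act downstream of neurogenins, ordered by the day 11 change. For 10 of the 14 the day 11 value is the highest of the time course, against 9.22% of coding records. MFNG, at -2.97 for day 18, is the single gene to the left of zero at all 3 days.

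Among 10 further proneural relatives, 6 passed the minimum, of which 4 were higher on day 18, 1 was lower and 1 lay between, with a median of 1.80. BHLHE22, a factor of cortical and retinal neurons, differed by 4.22 (0.110 FPKM on day 0 and 3.82 on day 18), and NHLH1 by 2.88. ATOH8 was lower by -2.99, from 6.72 to 0.757 FPKM, and ATOH7, the factor of retinal ganglion cells, was between 0.0611 and 0.127 throughout.

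Of the E-protein partners, TCF12 and TCF3 were more abundant than any member on every day, whereas TCF4, at 16.9 FPKM on day 11, was then below NEUROG2. TCF12 measured 86.6 FPKM on day 0 and 73.3 on day 18 (log2 -0.24), TCF4 18.2 and 10.5 (-0.78), and TCF3 66.1 and 33.4 (-0.98), and none of the 3 reached 2-fold in either direction. With the median shift taken off, the differences were 0.36, -0.18 and -0.38, so the direction of TCF12 depended on that scaling. The summed level of the 9 members stayed below the level of TCF12 alone on every day.

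The 4 ID genes, inhibitors of bHLH pairing, did not move together. ID1 was higher on day 18 (1.58 FPKM on day 0 and 11.5 on day 18, log2 2.78), as was ID2 (3.18 and 19.0, log2 2.54). ID4 stood at 42.9 and 65.6 FPKM (0.61), and ID3 was lower by -5.46, from 44.8 to 0.921 FPKM. ID3 already measured 10.5 FPKM on day 1, the interval in which NEUROG2 and NEUROD4 were first higher.

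Of 5 measured Notch-regulated repressors, 2 were higher and 0 lower on day 18, with a median of 0.15. HES5, the principal Notch effector of neural progenitors, was at 1.95 FPKM on day 0, 14.2 on day 1, 29.5 on day 11 and 20.0 on day 18 (log2 3.30). HES4 was at 9.93 and 31.4 FPKM (1.65), HES1 at 15.4 and 10.1 (-0.60) and HEY1 at 2.54 and 1.80 (-0.48). HES5 and its neighbour in the pathway DLL1 were both highest on day 11, the same day as NEUROG2. HES5 was the only 1 of the 5 repressors with its highest value on that day. HES1, HES4 and HEY1 were highest on day 2 and HEYL on day 1.

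The lists tied to single members gave smaller numbers. Of 4 measured glutamatergic forebrain genes known downstream of NeuroD factors, 2 were higher, BHLHE22 and SLC17A6, the vesicular glutamate transporter of subcortical neurons (1.32 FPKM on day 0 and 25.4 on day 18, log2 4.16). SLC17A7, the cortical transporter, was at or under 0.225 FPKM. TBR1, a cortical factor under the minimum, was at 0.402 FPKM on day 18 and at most 0.0431 before. Of 2 measured GABAergic genes, GAD1, which makes GABA, was higher at 1.11 (0.0692 and 0.266 FPKM), and DLX1, a factor of forebrain interneurons, stood at -0.65. GAD1 was under 0.1 FPKM on day 0 and passed the minimum only through its later days, which favoured a rise. With a pseudocount of 1 GAD1 did not reach 2-fold.

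Of 7 measured OLIG2 domain and oligodendrocyte genes, 4 were higher and 1 lower, with a median of 1.16. Among the higher genes, ISL1 and NKX6-1 were under 0.1 FPKM on day 0. Both passed the minimum only through their later days, which favoured a rise. The median is the value of NKX6-1 itself (0.0286 FPKM on day 0 and 0.187 on day 18). ISL1, a motor and sensory neuron factor, differed by 2.59 (0.00461 and 0.528 FPKM), and NKX6-2, a ventral patterning factor, by 1.57 (1.29 and 4.02). CSPG4, a marker of oligodendrocyte precursors, was lower by -1.47 (0.562 and 0.138), and PDGFRA, whose record is shared with FIP1L1, stood at -0.73. NKX2-2, the ventral neighbour of OLIG2, was at or under 0.00381 FPKM on every day.

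Of 6 ATOH1 lineage genes 3 passed the minimum, POU4F3 and LHX9 only through their later days, so that they had to differ. From day 0 to day 18 the log2 differences were positive, for the LIM factors LHX9 at 2.93 (0.0283 and 0.876 FPKM) and LHX2 at 1.37 (0.111 and 0.445), and for the POU factor POU4F3 at 2.79 (0.0324 and 0.817). With a pseudocount of 1 none of the 3 reached 2-fold. Both measured genes of the NEUROG3 endocrine list were higher, among them CHGA, a granule protein also made by neurons, at 2.76 (1.36 and 9.75 FPKM). The pancreatic factor PDX1 had a mean of 0.00201 FPKM. The record that holds INS, together with IGF2, was listed at 0 on every day, which may be a failed estimate.

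Genes with the course most like each member were sought among coding records with a mean of at least 1 FPKM, by Pearson's r of log2(FPKM + 0.1) over the 7 days. For NEUROG2 they were ZNF493, a zinc finger gene (r 0.996), DMXL2, a synaptic vesicle protein (0.996), and PAIP2B, a regulator of translation (0.994). For NEUROD4 they were XKR6 (0.991), DMXL2 (0.990) and NEUROG2 itself (0.988), so the 2 factors shared DMXL2. For CERKL,NEUROD1 they were POU4F1, a sensory neuron factor (0.995), and the nicotinic receptor subunits CHRNB4 (0.994) and CHRNA3 (0.992). POU4F1 measured 2.29 FPKM on day 0, 18.7 on day 5, 41.7 on day 11 and 24.4 on day 18. For NEUROG1 they were ARMCX1 (0.989), ZBTB46 (0.976) and ADAMTS10 (0.974). Between 0.314% and 1.06% of the compared records, 37 to 125 of them, had an r above 0.95 with a given member. A high r did not mean a like size of change, as DMXL2 was at 7.02 FPKM on day 0 and 10.8 on day 11.

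Several members share exon bases with other records, and the authors' software was run at its default options, which do not use strand, so reads from a gene and its antisense partner cannot be told apart there. Within 50 kb of the members lay 22 other records, of which 6 shared exon bases with 5 of the members. The largest share was that of linc-NEUROG2-AS (chr4:113434693-113467981, plus strand), whose exons cover 1165 bases or 51.0% of those of NEUROG2. It measured 0.0989 FPKM on day 0, 0.510 on day 1, 0.425 on day 2, 0.601 on day 4, 0.247 on day 5, 0.778 on day 11 and 0.408 on day 18, with an r of 0.85 with NEUROG2 and its highest value on the same day. Its level was below that of NEUROG2 on every day.

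The reverse held for NEUROG3, which was lower than the record on its other strand. linc-NEUROG3-AS (chr10:71332711-71336910, plus strand) shares 90 exon bases, 7.72% of those of NEUROG3. It measured 0.634, 2.70, 3.76, 3.48, 3.17, 0.824 and 0.577 FPKM in the order of the days, and was highest on day 2 as NEUROG3 was (r 0.78). Reads from those 90 bases cannot be assigned to NEUROG3 or to this lincRNA, whereas the rest of the NEUROG3 exon bases are not shared with it. How much of NEUROG3's low values came from the shared bases was not tested. The 2 records named linc-NEUROD4-AS share 29.1% and 2.73% of the NEUROD4 exon bases, and measured at most 0.0505 FPKM. ITGA4, an integrin subunit, shares 1065 bases, 15.9% of the CERKL,NEUROD1 record, and took the opposite course, from 9.87 FPKM on day 0 to 1.23 on day 18. linc-NEUROD1-BP, which lies on the other strand 116 bases upstream of that record's start, inside the window printed above, and shares no exon base with it, stayed at or under 0.0691 FPKM.

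**Figure D4:**
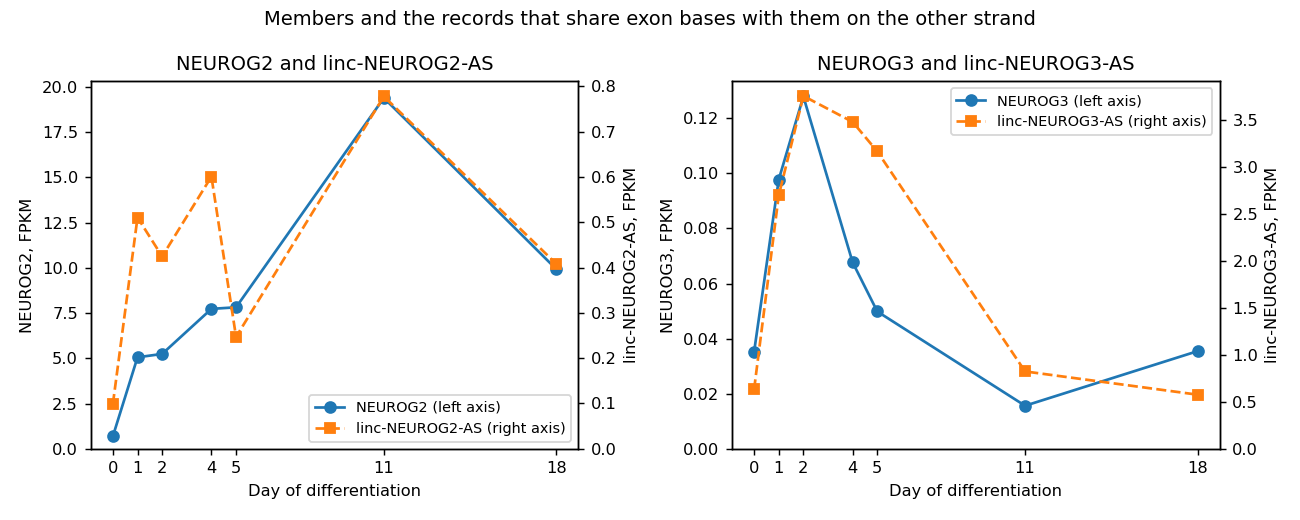
FPKM by day of NEUROG2 (left panel) and NEUROG3 (right panel), each on the left axis, with the lincRNA record that overlaps it on the other strand on the right axis, 1 pooled value per day. Both NEUROG2 and linc-NEUROG2-AS were highest on day 11, and both NEUROG3 and linc-NEUROG3-AS on day 2, where the lincRNA measured 3.76 FPKM and NEUROG3 0.128.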

How the data were processed

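Polyadenylated RNA of 20 cultures was sequenced as paired ends. The authors aligned reads to hg19 with TopHat2, assembled them with Cufflinks and estimated FPKM with Cuffdiff2 at default options, versions not given in the sources used here. The deposited FPKM values hold 1 value per record and day, and columns with values of single samples numbered 0. The depth of single libraries and the spread between cultures are therefore unknown, and no test was run. A second deposited table holds the authors' own fold changes, p-values and q-values for neighbouring days, which were not used, and exon coordinates, which were.

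Changes were computed as log2 of FPKM plus a pseudocount of 0.1, which understates those of low genes. Records with a mean of at least 0.1 FPKM were counted. Fragments were approximated from the spacing of low values in records of 1500 to 4000 exon bases. By that spacing a fragment was worth about 0.0172 on day 2, 0.0133 on day 0 and 0.00425 on day 18, in FPKM times kb of transcript. Days 0 and 2 had the largest such values, so a low FPKM there rests on fewer fragments than on other days. Cuffdiff2 can list a failed estimate as 0. Windows were read from GRCh37, whose main chromosomes are those of hg19, and gene models from GENCODE. The counting script was tested on simulated data. Python 3.11.15, numpy 2.4.6, pandas 2.3.3 and matplotlib 3.10.9 were used.

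The members and the 10 gene lists were chosen with earlier results of these data known. From each list the 2 largest rises and the 2 largest falls were named among records above the minimum, and for each member above it the 3 records most alike. DLL1, DLL3, INSM1, TBR1, NKX2-2, PDX1, INS and OLIG1 were named after their values had been seen, and some list genes are counted but not reported here by name. Alternatives were other pseudocounts, folds, minimums, a recentring on the median record, summed records and Spearman's rho.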

Additional observations from a re-analysis of the deposited data

How the results depend on the processing

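The pooled values leave no culture to leave out, and no culture-level precision. No paired analysis was possible because the files hold 1 pooled value per day. From day 0 to day 18, 4 members were higher with a fold of 1.5 and relative to the median, 3 with a fold of 4 (without CERKL,NEUROD1), 3 with a pseudocount of 1 (without NEUROG1, at 0.84), 3 of 3 with a minimum mean of 1 FPKM, and 5 of 9 with no minimum, where NEUROD2 joined. None was lower under any of these. Summing all records of a symbol changed no member, since each had 1. With a pseudocount of 1, NEUROD4 stood at 0.96 from day 5 to day 11 and NEUROG1 at 0.42 from day 1 to day 2, both under 2-fold. With a pseudocount of 0.01 ATOH1 (3.16), NEUROD6 (1.58) and OLIG2 (1.13) passed 2-fold at day 18, all on few fragments. Relative to the median ATOH1 stood at 1.44 for day 18 against day 0.

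Of the list counts at day 18, those of higher genes with a pseudocount of 1 became 2 for the OLIG2 domain, 0 for the ATOH1 lineage, 1 for the NEUROG3 endocrine and 0 for the GABAergic list, and that of lower genes became 0 for the OLIG2 domain list, both with a pseudocount of 1 and relative to the median. The genes that left these counts, such as NKX6-1, ISL1, CSPG4, LHX2, LHX9, POU4F3 and GAD1, all had means under 1 FPKM, where the pseudocount weighs most. By Spearman's rho over 7 days, between 5 and 89 records tied at 1 with a given member, so no 3 nearest could be named by it. Of the 3 genes named by Pearson's r, those among the tied records numbered 3 for CERKL,NEUROD1, 2 for NEUROG1, 1 for NEUROG2 and 0 for NEUROD4. With NEUROD4, rho was 0.786 for XKR6 and 0.893 each for DMXL2 and NEUROG2.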
